A study of Mus musculus with 101 samples.

Results

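The germ cells compared were those of XY embryos of the F2 generation whose F0 ancestor received benzo[a]pyrene (BaP), a combustion-derived polycyclic aromatic hydrocarbon, at 2 mg/kg-day, and those of XY F2 embryos descended from vehicle-fed F0 dams. Embryos were taken by their titles, which name the generation, the dose group, the dam and the sex. This gave 3 exposed and 6 vehicle embryos, 9 of the 53 XY and 48 XX embryos in the series. All carried the OG2 transgene, EGFP under the promoter and distal enhancer of Pou5f1 (Oct4), on a C57BL/6J background. Pregnant F0 dams were fed sesame oil with or without BaP during gestation, and their F1 sons and daughters of the same dose, never littermates, were mated to give the F2. The F2 embryos were therefore not dosed themselves, though the germ cells they descend from lay in the F1 fetuses that were. At E13.5 EGFP-positive cells were sorted from the gonad with its mesonephros, the sex was read from gonad shape, and cDNA primed with oligo(dT) was sequenced without marking strand. The exposed embryos came from dams D1669, D3620 and D4028, and the vehicle embryos from C4988, C4992, D2991, D2996, D3001 and D3133, so that the 9 embryos stand for 9 litters. Values are normalized counts, meaning gene counts scaled between libraries by the authors, and a value of 0.5 was added before taking log2. Because of that addition a log2 fold change understates the change of a gene with few counts. Exposed values are always listed in the order D1669, D3620, D4028, and vehicle values as the lowest, the median and the highest of 6.

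Primordial germ cells reach the genital ridge before the gonad takes its sex, and their own fate then follows signals from the supporting cells around them. In an XY gonad Sertoli cells differentiate under Sox9, enclose the germ cells in cords and secrete factors such as Fgf9, while the germ cells hold back from meiosis, enter mitotic arrest and begin a male programme that includes Nodal signalling and Nanos2. BaP is activated by cytochrome P450 enzymes whose genes are induced through the aryl hydrocarbon receptor, and its reactive metabolites bind DNA.

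Reads recovered from the values numbered 6610899, 8335443 and 7647564 in the exposed embryos and lay between 7061827 and 12211582 in vehicle. The difference in mean reads had an exact permutation p of 0.381 (two-sided, smallest possible p 0.0119), and the number of genes with reads one of 0.512. A single read was worth between 0.0801 and 0.156 normalized counts, so low values rest on few reads. Vehicle libraries D2996 and D3001 stood apart from the rest, with the lowest sums of normalized counts of the 9, 877818 and 758171, and the highest median counts, 7.43 and 8.23. Results are therefore also given without this pair, a choice made after the data were seen.

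The germ cell label held in all 9 embryos. Dppa3, a maternal-effect gene that marks early germ cells, had normalized counts of 3380, 3134.4 and 1864 in exposed embryos and of 1468, 2222 and 3258 in vehicle. The values overlapped, and embryo D1669 lay above every vehicle embryo. Of the 15 germ cell identity genes, all were tested, 0 passed the looser rule described next, and their median log2 fold change was 0.16. The XY label held as well. Eif2s3y, a Y-linked translation factor gene, was at 182, 221 and 168 in exposed and at 115, 170 and 246 in vehicle embryos. Kdm5d, a Y-linked histone demethylase gene, was at 2.47, 3.15 and 4.09 against 3.12, 4.60 and 6.29. Both genes overlapped between the groups, and of the 6 sex chromosome genes tested 0 passed the looser rule, with a median of 0.08.

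No gene passed the test by limma, and the genes that met a looser rule were mostly weakly expressed genes with low values in exposed embryos, among them markers of the testis soma and of macrophages. Limma called 0 of 13083 genes (0%) at an adjusted p below 0.05, and 486 genes had an unadjusted p below 0.05. EdgeR's quasi-likelihood test on recovered reads also called 0, with 449 at an unadjusted p below 0.05, and edgeR's likelihood ratio test called 3, with 508. Each of these unadjusted counts was under a share of 0.05 of the genes tested, the share that this threshold would take if no gene differed. Under a looser rule, an unadjusted p below 0.05 with at least a 1.5-fold difference, 372 genes (2.84%) were lower and 42 (0.321%) higher in exposed embryos. At such shares a short gene list can have 0 members past the rule whether or not its genes respond. In 76 genes (0.581%) all 3 exposed values lay below all 6 vehicle values, and in 33 (0.252%) all lay above. With 84 possible splits of the embryos, labels without meaning would give each pattern in a share of up to 0.0119 of genes. Both observed shares were below that, so values that do not overlap are no evidence of a difference by themselves. Non-overlapping values were found in 50 of the 372 lower genes and in 12 of the 42 higher genes. These shares are raised by the choice of the genes from the same values and are no further support. Of all genes tested 6622 had a log2 fold change above 0 and 6459 below, and the median over all genes was 0.0026 on the log2 scale. With the scaling changed to median ratios it was 0.021, and the looser rule gave 341 lower and 49 higher genes.

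The counts against vehicle depended on the embryos used. Among the 372 lower genes, D3001 held the highest of the 9 values in 192, D2996 in 89 and each other embryo in at most 36. D2996 or D3001 was the highest in 75.5% of the lower genes and in 30.6% of all genes tested. Part of that gap was fixed by how the lower genes were chosen. Among them D1669, D3620 and D4028 were the highest in 0, 1 and 2 genes. Without both embryos the looser rule gave 155 lower (1.19%) and 182 higher genes (1.40%) of 13039 tested, of which 124 lower genes (33.3% of the 372) and 31 higher genes (73.8% of the 42) were shared with the full comparison. Without D3001 alone the counts were 217 lower and 76 higher. Single embryos of both groups moved the counts too. Without D3620 there were 228 lower and 64 higher genes, and without D4028 there were 581 and 179. The higher genes numbered 26 without D1669 and 67 without C4988. The lower genes were also of low abundance, with a median normalized count over the 9 embryos of 2.71 against 10.5 for all genes tested, and 107 of the 372 had a mean of at least 5.

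**Figure D1:**
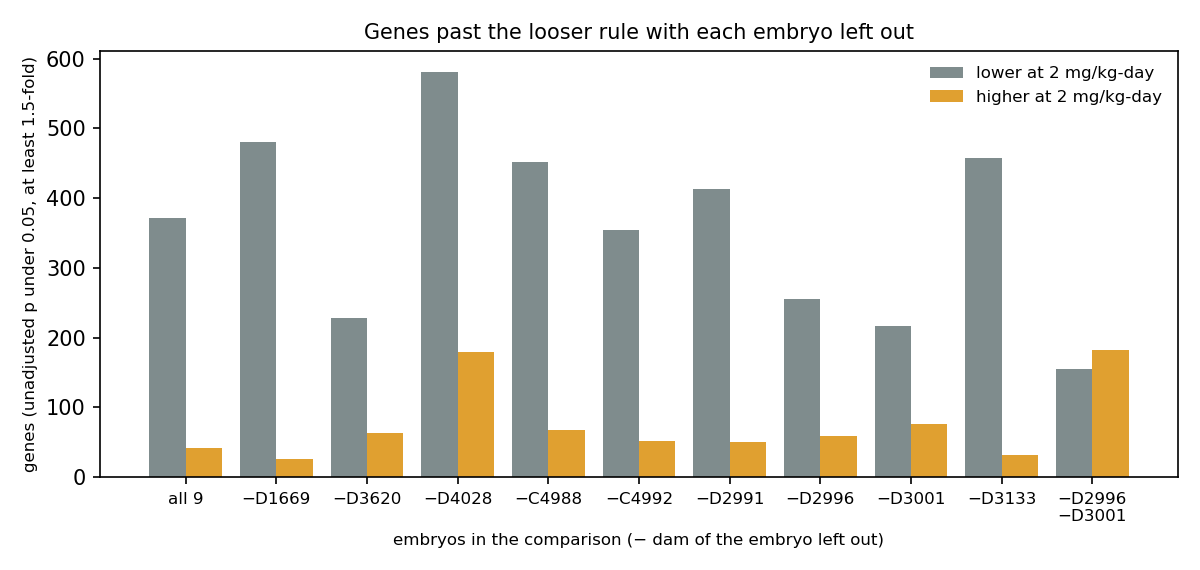
Number of genes past the looser rule (unadjusted p below 0.05 and at least 1.5-fold) in F2 XY embryos at 2 mg/kg-day against vehicle, with all 9 embryos and with single embryos left out, named by dam. Grey bars are genes lower and yellow bars genes higher in exposed embryos. The 372 lower and 42 higher genes of the full comparison became 155 and 182 without D2996 and D3001.

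Fgf9, on chromosome 14 from 58070671 to 58112854 (GRCm38), encodes a growth factor made by Sertoli cells and had the smallest limma p of all genes. Its normalized counts were 0.309, 0.274 and 0 in exposed embryos, which is 2, 2 and 0 reads, and 1.08, 1.61 and 2.61 in vehicle, 10 to 27 reads. Every exposed embryo lay below every vehicle embryo. The log2 fold change was -1.65 (SE 0.32, adjusted p = 0.218 by limma), and edgeR's likelihood ratio test gave an adjusted p of 0.0382 where its quasi-likelihood test gave 0.918. Without the pair D2996 and D3001 the log2 fold change of Fgf9 was -1.62.

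Cd1d1 and Dock10, the other genes called by the likelihood ratio test, are named because of that call. Cd1d1 (chromosome 3, 86995834 to 87012358) presents lipid antigens to T cells. Its counts were 0.154, 0.274 and 0.241 in exposed embryos, 1, 2 and 2 reads, against 0.779, 1.66 and 2.54 in vehicle, 5 to 26 reads. The log2 fold change was -1.48 (SE 0.31, adjusted p = 0.223 by limma, likelihood ratio test adjusted p = 0.0382, quasi-likelihood test adjusted p = 0.471). Dock10 (chromosome 1, 80501068 to 80758765), a dedicator of cytokinesis protein, had 0 reads in each exposed embryo and 3 to 15 reads in vehicle, where its normalized counts were 0.240, 0.693 and 1.47. Its adjusted p was 0.742 with limma, 0.0422 with the likelihood ratio test and 0.918 with the quasi-likelihood test. The exposed and vehicle values did not overlap for either gene, and both were scarce in all embryos.

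Slc9a3r2, which encodes a PDZ scaffold protein, was called by limma only when exposed embryo D4028 was left out (log2 fold change -1.87, adjusted p = 0.0402 by limma). Its normalized counts were 0, 0.684 and 4.69 in exposed embryos and 1.36, 2.33 and 3.78 in vehicle. D4028 lay above all vehicle embryos and the other exposed embryos below them, and with all 9 embryos the log2 fold change was -0.96 (adjusted p = 1 by limma).

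Among genes with a group mean of at least 5 normalized counts and at least a 1.5-fold difference, 14 lower genes had values that did not overlap, and the 12 with the smallest p are given here. Their roles were mixed. Tmsb4x, the X-linked gene of the actin monomer binding protein thymosin beta 4, had normalized counts of 24.2, 11.1 and 11.7 in exposed embryos and of 28.8, 46.2 and 54.2 in vehicle. All exposed values were low, D3620 and D4028 the most, and the log2 fold change was -1.49 (SE 0.40, adjusted p = 0.742 by limma). Tpm4, a tropomyosin that lines actin filaments, was at 11.1, 6.71 and 8.54 against 12.1, 16.7 and 23.0, with the gap between the groups narrow at D1669. Its log2 fold change was -0.96 (SE 0.29, adjusted p = 0.799 by limma). Eps8, an actin capping and bundling protein, was at 3.71, 3.56 and 4.09 against 5.61, 7.13 and 21.3. The highest of these vehicle values was from an embryo far above the median, and the log2 fold change was -1.12 (SE 0.41, adjusted p = 1 by limma).

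Cmtm3, a transmembrane protein with a MARVEL domain, had the smallest p of the 12. Its normalized counts were 4.48, 1.51 and 2.17 in exposed embryos and 4.55, 7.72 and 12.3 in vehicle, so that D1669 lay just under the lowest vehicle embryo. The log2 fold change was -1.44 (SE 0.36, adjusted p = 0.646 by limma). Dap, which encodes a death-associated protein that restrains autophagy, was at 4.17, 1.64 and 4.09 against 4.62, 6.85 and 9.78. Its log2 fold change was -1.0 (SE 0.26, adjusted p = 0.728 by limma), and D3620 was the lowest of all. Aldh3b1, an aldehyde dehydrogenase, was at 1.39, 0.958 and 1.32 against 2.03, 3.01 and 10.9, a log2 fold change of -1.42. Hdhd3, a predicted hydrolase, was at 2.32, 2.33 and 3.61 against 3.81, 4.94 and 6.52, a log2 fold change of -0.79. The vehicle embryos spread over a wider range than the exposed ones in both genes, and for Hdhd3 the lowest of them was close to D4028.

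Fbln2, a fibulin of basement membranes, was at 3.55, 3.70 and 1.08 in exposed embryos and at 3.74, 7.63 and 19.7 in vehicle, the last in D3001, with a log2 fold change of -1.48. Pcolce, which enhances procollagen processing, was at 2.32, 2.60 and 2.29 against 2.96, 4.83 and 20.0, with a log2 fold change of -1.22. The lowest vehicle embryo was close to the highest exposed embryo in each. The remaining genes of the 12 were Tspan32, a tetraspanin of blood cells, Stambpl1, a deubiquitinase, and 9030624G23Rik, a gene without a described function. Their log2 fold changes were -1.08, -0.68 and -0.75. That of 9030624G23Rik was -0.44, under 1.5-fold, without D1669. Without D2996 and D3001 the 12 log2 fold changes ran from -1.37 in Tmsb4x to -0.56 in Pcolce, with a sign that was fixed by how the genes were chosen, and Pcolce, Eps8 and Tspan32 no longer passed the looser rule.

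In the opposite direction 1 gene met the same conditions. Galnt11, on chromosome 5 from 25222872 to 25265918, starts O-glycosylation by adding N-acetylgalactosamine. Its normalized counts were 11.1, 11.6 and 10.5 in exposed embryos and 3.74, 7.64 and 8.996 in vehicle. The lowest vehicle value was that of D2991, and the next lowest was 6.26. The exposed values were tight and above all vehicle values, and the log2 fold change was 0.65 (SE 0.27, adjusted p = 1 by limma). It was 0.69 without D2996 and D3001.

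**Figure D2:**
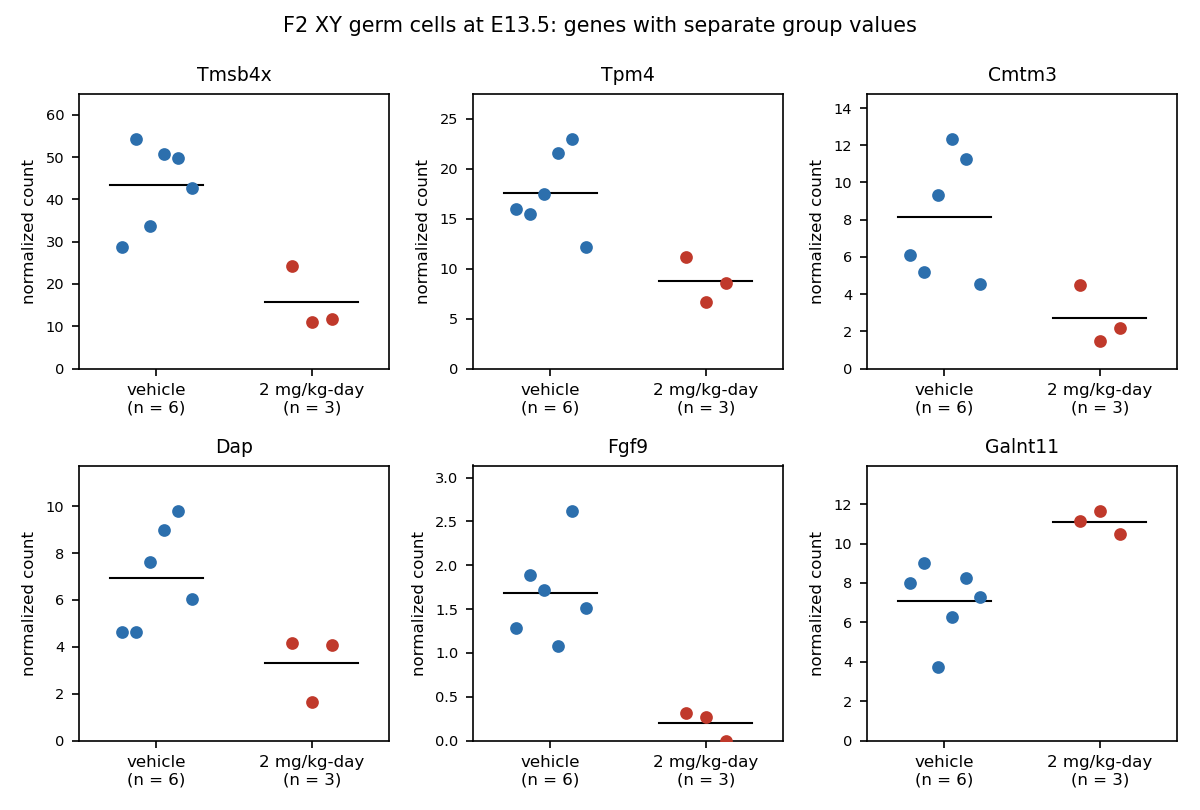
Normalized counts of 6 genes in germ cells of single F2 XY embryos at E13.5, vehicle in blue and 2 mg/kg-day in red, with the group mean as a line. In each gene the groups do not overlap. Tmsb4x, Tpm4, Cmtm3, Dap and Fgf9 are lower in exposed embryos and Galnt11 is higher, and limma called none of them.

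Markers of Sertoli cells, the supporting cells of the testis cords, had the highest sum of the somatic marker lists in every embryo but vehicle D2991. Their summed normalized count was 1224, 524 and 256 in exposed embryos and 542, 1073 and 1625 in vehicle. D1669 lay within the vehicle range, D3620 and D4028 under it, and the highest vehicle sums were those of D2996 and D3001. Of 13 Sertoli markers, all tested, 13 had a log2 fold change below 0, 5 passed the looser rule as lower and 0 as higher, against 2.84% and 0.321% of all genes. Their median log2 fold change was -0.99, and it was -0.60, with 2 lower by the looser rule, against 1.19% of all genes, without D2996 and D3001. In such bulk samples fewer cells of a type and less RNA per cell cannot be told apart. The sort was gated to leave out EGFP-negative somatic cells.

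Cst9, a cystatin gene, had the highest normalized count of the Sertoli markers. It was at 683, 319 and 90.8 in exposed embryos and at 264, 494 and 639 in vehicle. D1669 was the highest of all 9 and D4028 the lowest, and the log2 fold change of -0.70 became 0.09 without D4028. Sox9, the transcription factor that directs Sertoli cell fate, was at 4.79, 2.33 and 1.32 against 3.44, 5.90 and 20.2. D1669 lay inside the vehicle range and the others under it, with a log2 fold change of -1.25 (SE 0.38, adjusted p = 0.803 by limma). Gata4, a factor of gonadal somatic cells, was at 4.79, 2.33 and 0.602 against 1.97, 4.86 and 18.5, with a log2 fold change of -1.17. Mro, a gene of the male gonad, was at 5.71, 3.15 and 2.05 against 4.09, 7.004 and 19.4, with a log2 fold change of -1.15. These log2 fold changes were -0.78, -0.60 and -0.61 without D2996 and D3001, and there Gata4 and Mro no longer passed the looser rule. Without D4028 those of Gata4 and Mro were -0.57 and -0.84, and again neither passed it. For Sox9, Gata4 and Mro the order of the exposed embryos was the same as in the Sertoli sum.

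The low values of macrophage markers did not rest on the vehicle pair. Their sum was 18.7, 10.9 and 7.70 in exposed embryos and 12.5, 30.8 and 54.3 in vehicle. Vehicle embryo D2991 reached down into the exposed range and the other vehicle embryos lay above it. Of 20 macrophage markers 18 were in the table and 11 were tested, 11 lay below 0, 6 were lower by the looser rule and 0 higher, against 2.84% and 0.321% of all genes, and the median log2 fold change was -0.93. Without D2996 and D3001 the median was -1.0 with 7 lower, against 1.19% of all genes. C1qb, a complement C1q chain made by macrophages, was at 1.24, 1.78 and 0.722 against 1.09, 5.01 and 12.1, and C1qc, another chain, had a log2 fold change of -1.52. Tyrobp, a signalling adaptor of myeloid cells, was at 1.85, 1.23 and 2.41 against 2.48, 4.28 and 7.46. Of the 11 genes Tyrobp alone had groups that did not overlap, where 0.581% of all genes had all exposed values below all vehicle values, and its log2 fold change was -1.02 (SE 0.35, adjusted p = 0.976 by limma). Lyz2, myeloid lysozyme, had a log2 fold change of -1.67 and shares near-identical sequence with Lyz1, so its reads may be split between them.

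**Figure D3:**
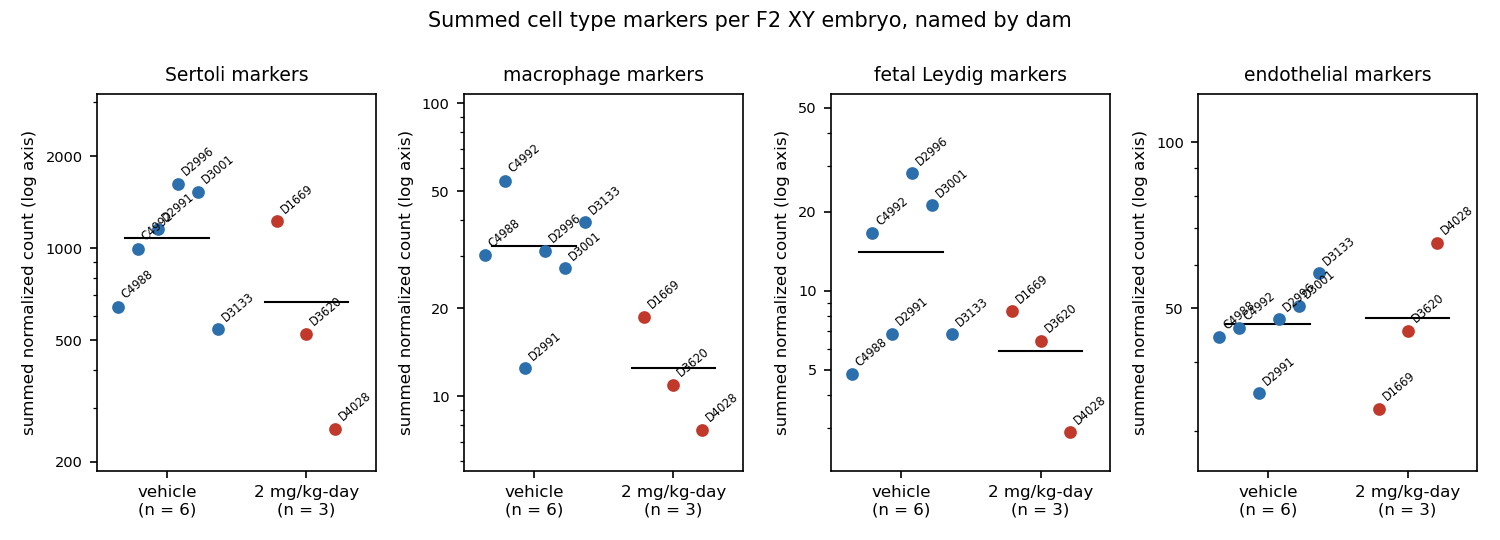
Summed normalized counts (log axis) of Sertoli, macrophage, fetal Leydig and endothelial markers in single F2 XY embryos, named by dam, vehicle in blue and 2 mg/kg-day in red, with the group mean as a line. Exposed embryo D1669 lies within the vehicle range of the Sertoli and macrophage sums while D3620 and D4028 lie under both ranges.

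Fetal Leydig markers, genes of steroid synthesis, summed to 8.34, 6.43 and 2.89 in exposed embryos and to 4.81, 11.7 and 28.1 in vehicle, with 0 of 4 tested past the looser rule and a median of -0.81, which was -0.38 without D2996 and D3001. Hsd3b1, a steroid dehydrogenase gene, was at 3.55, 2.33 and 0.962 against 1.87, 4.50 and 11.6, and Nr5a1, a regulator of steroidogenesis, had a log2 fold change of -0.91. Endothelial markers summed to 32.9, 45.6 and 65.8 against 35.1, 46.9 and 57.9, with 0 of 6 past the looser rule and a median of -0.08. Pecam1, a junction protein of vessel walls that germ cells also express, was at 19.5, 30.2 and 38.6 against 18.9, 26.4 and 28.0. Egfl7, a factor secreted by endothelium, had a log2 fold change of -0.36, which was -0.65, past the looser rule, without D4028. The exposed endothelial sums lay on both sides of the vehicle values.

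Stroma and epithelium gave similar overlap. Gonadal stroma markers summed to 3.24, 1.64 and 3.73 against 1.56, 4.63 and 7.14, with 0 of 3 tested past the looser rule and a median of -0.28, which was -0.10 without D2996 and D3001. Acta2, smooth muscle actin, and Dcn, the proteoglycan decorin, had log2 fold changes of -0.28 and -0.50. Mesonephric and simple epithelium markers summed to 29.3, 26.005 and 43.2 against 26.4, 37.8 and 56.2, with 2 of 7 lower, against 2.84% of all genes, and a median of -0.20. The lower ones were the keratin genes Krt18 (log2 fold change -0.84) and Krt8 (-1.12), while Krt7, the most abundant by normalized count, was at 0.18. Squamous epithelium markers summed to 32.4, 30.9 and 33.7 against 27.2, 39.7 and 54.8, with 2 of 7 lower, against the same 2.84%, and a median of -0.53. These were Dsp, a desmosome gene (log2 fold change -0.78), and the galectin Lgals7 (-0.90), and Sfn, the most abundant, was at -0.30. Without D2996 and D3001 0 of these markers were lower by the looser rule, and the medians of the epithelial lists were -0.13 and -0.35.

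Pregranulosa markers, of the female supporting lineage, summed to 7.72, 4.11 and 4.57 against 4.52, 6.95 and 19.7, with 1 of 5 lower, against 2.84% of all genes, and a median of -0.09. That gene was Wnt6, a Wnt ligand, with a log2 fold change of -1.09. It was -0.48, not past the looser rule, without D2996 and D3001, where the median was 0.09. Mast cell markers summed to 0.463, 0 and 0 against 0.401, 1.89 and 18.8, with 1 of 2 lower, against 2.84% of all genes, and a median of -1.35. Cpa3, a mast cell protease, had 0 reads in each exposed embryo and normalized counts of 0, 1.29 and 16.2 in vehicle. Erythroid markers summed to 3.24, 1.37 and 2.89 against 2.24, 3.36 and 1666, with 0 of 7 past the looser rule and a median of -1.92, which was -2.88 without D2996 and D3001. The high erythroid values came from single vehicle embryos, D2991 with 1666 and C4992 with 87.5. Hba-a1, an alpha globin gene whose copy Hba-a2 is nearly identical, reached 707 in D2991 against a vehicle median of 0.392, and Hbb-b1, a beta globin gene, was at 0 in each exposed embryo and had a vehicle median of 0 and a highest value of 125. Of 9 neutrophil markers 0 were in the table. What part these cells have in the lower genes was not tested.

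Within the 372 lower genes 17 (4.57%) were on a marker list, against 0.543% of all genes tested. Genes that differ between the sexes made up a larger share. XY-biased genes were defined in the 22 vehicle embryos of F1 and F3, not used in the present comparison, as those over 2-fold higher in XY embryos by limma at an adjusted p below 0.05, and numbered 1038. Of these 1013 were tested here, 118 were lower by the looser rule and 5 higher, with a median of -0.02. The 118 made up 31.7% of the lower genes, whereas XY-biased genes made up 7.74% of all genes tested. Of the 1038 XY-biased genes 28 were on a marker list, where 71 of all genes tested (0.543%) were. Without D2996 and D3001 there were 30 lower and 10 higher, against 1.19% lower and 1.40% higher of all genes. XX-biased genes numbered 1103, of which 1091 were tested, with 49 lower, 5 higher and a median of -0.05. They made up 13.2% of the lower genes and 8.34% of all genes tested, and without the pair 24 were lower and 19 higher, to be set against the same shares of all genes.

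Among the lists of germ cell genes and their signals, the share lower by the looser rule lay on both sides of that of all genes. It was above it for pluripotency, Nodal and activin signalling, FGF signalling and imprinted genes. It was 0 for XY germ cell fate, meiotic, piRNA, DNA methylation and Polycomb genes. The counts behind these shares are small in every list. Of 18 pluripotency genes tested 0 were higher and 1 lower, against 0.321% and 2.84% of all genes, with a median of 0.07. Dppa5a, the list's highest in normalized count, was at 4886, 5721 and 3640 in exposed embryos and at 2893, 3861 and 6266 in vehicle, with full overlap. Klf4, a pluripotency factor that is also used in somatic cells, was the lower one, at 2.93, 2.46 and 0.481 against 2.15, 3.73 and 7.26. D1669 and D3620 were inside the vehicle range and D4028 under it, and the log2 fold change was -0.96. It was -0.91 without D2996 and D3001 and -0.40, not past the looser rule, without D4028, while the median of the list without the pair was -0.04.

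Of 15 tested genes of Nodal and activin signalling 0 were higher and 2 lower, against 0.321% and 2.84% of all genes, with a median of -0.12. The median was 0.0088, with 1 lower, without D2996 and D3001. Lefty2, a Nodal antagonist induced by the pathway, was at 72.7, 84.6 and 110.0 in exposed embryos and at 73.2, 83.1 and 103.4 in vehicle, centred on the same level. The co-receptor gene Tdgf1 was at 9.89, 8.08 and 13.7 against 11.5, 16.7 and 28.0. D1669 and D3620 lay under all vehicle embryos, D4028 did not, and the log2 fold change was -0.67 (SE 0.34, adjusted p = 1 by limma). The lower genes were Pcsk6, a convertase that cleaves Nodal precursors, at 1.85, 1.92 and 1.44 against 1.71, 3.68 and 7.75, and Inhbb, the activin beta B subunit made by Sertoli cells, at 2.63, 0.821 and 0.842 against 1.67, 2.72 and 7.26. Their log2 fold changes were -0.94 (adjusted p = 0.799 by limma) and -1.01 (adjusted p = 1 by limma). They were -0.62 and -0.65 without D2996 and D3001, where Inhbb no longer passed the looser rule.

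The XY germ cell fate list had 12 tested genes, 1 higher and 0 lower, against 0.321% and 2.84% of all genes, with a median of 0.06, which was 0.24 without D2996 and D3001. Sall1, a zinc finger factor gene, was the higher one, at 2.01, 1.64 and 1.68 in exposed embryos and 0.156, 0.940 and 1.66 in vehicle, with a log2 fold change of 0.81. D1669 and D4028 lay above the vehicle range and D3620 near its top. Nanos2, an RNA-binding regulator that directs male germ cell fate, was at 5.71, 1.64 and 0.481 against 0, 0.841 and 3.13. Only D1669 lay above the vehicle range, and the log2 fold change was 0.81 (SE 0.53, adjusted p = 1 by limma). It was 1.44, past the looser rule, without D4028, which held the lowest exposed value.

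FGF signalling had 13 tested genes with 0 higher and 2 lower, against 0.321% and 2.84% of all genes, and a median of -0.10. Apart from Fgf9 the lower gene was Spry4, an inhibitor induced by FGF signals, at 1.08, 1.92 and 2.65 in exposed embryos and 2.08, 3.64 and 4.94 in vehicle. D4028 lay within the vehicle range, and the log2 fold change was -0.80. Etv5, a transcription factor downstream of FGF receptors with the highest normalized count of the list, was at 59.2, 63.1 and 66.7 against 45.8, 54.1 and 67.5, which overlapped. The median of the list was 0.06, with 1 lower, without D2996 and D3001, as Spry4, at -0.75, no longer passed the looser rule.

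Of 25 tested genes of meiotic entry and prophase 22 lay above 0, with 0 past the looser rule in either direction. Their median log2 fold change was 0.26, against 0.0026 for all genes, and 0.11, with 1 higher, without D2996 and D3001. Syce2, a synaptonemal complex gene, was at 1122, 1316 and 519 in exposed embryos and at 395, 829 and 1354 in vehicle, all within the vehicle range. Mei1, required for meiotic recombination, had values that did not overlap, 0.463, 0.547 and 0.241 against 0, 0 and 0.194, at the level of a few reads. Stra8, the gene that retinoic acid induces before meiosis, was at 2.93, 0.274 and 0.962 against 0, 1.62 and 3.04, with a log2 fold change of -0.09 that was 0.42 without D3620.

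The piRNA pathway had 16 tested genes, 0 past the looser rule and a median of 0.15, which was -0.01 without D2996 and D3001. Fkbp6, a chaperone cofactor in piRNA loading, was at 426, 398 and 384 in exposed embryos and at 221, 384 and 472 in vehicle. Piwil2, a PIWI protein, was at 32.1, 21.6 and 22.7 against 18.6, 20.7 and 26.7, where D1669 alone lay above the vehicle range. Of 10 genes of DNA methylation and its removal 0 passed the looser rule and the median was 0.04, or 0.18 without the pair. Trim28, a corepressor that protects imprints, had a log2 fold change of 0.04 and Dnmt3b, a de novo methyltransferase, one of -0.31. Polycomb and PRC1.6 had 14 tested genes, 0 past the looser rule and a median of 0.11, or 0.0057 without the pair. Eed, a PRC2 subunit, was at 0.12, and Kdm2b, a histone demethylase that recruits PRC1 to CpG islands, was at 42.2, 30.7 and 28.4 against 24.8, 26.9 and 31.4, a log2 fold change of 0.27. Exposed and vehicle values overlapped for all of these genes.

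Imprinted genes gave 0 higher and 3 lower of 20 tested, against 0.321% and 2.84% of all genes, with a median of -0.23. Snrpn, a splicing protein gene expressed from the paternal allele, was at 404, 815 and 473 in exposed embryos and at 317, 584 and 698 in vehicle, so that D3620 was the highest of all. The lower genes were scarce. Dlk1, a Notch-like protein of fetal tissues, was at 0.463, 0.958 and 0.722 against 0.779, 1.45 and 4.20. Igf2, a fetal growth factor, was at 0.772, 0.137 and 0.602 against 0.156, 1.11 and 2.23. Grb10, a growth-restraining adaptor, was at 2.47, 2.46 and 1.08 against 1.87, 3.57 and 8.91. All overlapped, their log2 fold changes were -0.98, -0.69 and -0.82, and without D2996 and D3001 0 of the list were lower and its median was -0.02.

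The aryl hydrocarbon receptor list holds Ahr, Arnt and Nfe2l2 beside targets of the receptor, which respond when cells meet BaP directly. It had 13 genes in the table and 8 tested. Of these 0 passed the looser rule, against 2.84% lower and 0.321% higher of all genes, and the median was -0.09. Ahr itself, on chromosome 12 from 35497979 to 35534989, was at 3.55, 3.28 and 2.65 in exposed embryos and at 1.40, 3.73 and 5.62 in vehicle. Cyp1b1, a BaP-activating enzyme, was at 0.463, 1.09 and 1.32 against 0.455, 0.71 and 1.55. Cyp1a1, the classic receptor target, had too few counts to be tested, at 0.154, 0.547 and 0 against 0, 0.0484 and 0.489. Nfe2l2, the regulator of oxidant defence, was at 17.6, 27.1 and 31.2 against 25.4, 30.02 and 34.5, with D1669 alone under the vehicle range.

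Among 20 glutathione and NRF2 target genes 0 were higher and 1 lower, against 0.321% and 2.84% of all genes, with a median of -0.15. The lower gene, Gstm2, is a glutathione transferase. It was at 944, 549 and 294 in exposed embryos and at 725, 1008 and 1336 in vehicle, with D1669 inside and D3620 and D4028 under the vehicle range, in the same order as the Sertoli sum. The log2 fold change was -0.84 (SE 0.30, adjusted p = 1 by limma), and it was -0.68 without D2996 and D3001 and -0.41, not past the looser rule, without D4028. Whether the Sertoli markers have a part in it was not tested. Gpx1, a glutathione peroxidase with the highest normalized count of the list, was at 2063, 2100 and 1611 against 1202, 1851 and 2346, all within the vehicle range.

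Of 22 tested p53 targets 0 passed the looser rule, with a median of -0.04, and 1, Plk2, was lower by it without D2996 and D3001. Plk2, a p53-induced kinase, was at 1.08, 4.52 and 5.77 against 3.87, 5.22 and 7.88, low in D1669 only, with a log2 fold change of -0.69. Of 18 genes for repair and bypass of bulky adducts 0 passed, with a median of 0.02, and 1, Ercc5, was higher without the pair. Ercc5, an excision nuclease, was at 5.71, 3.97 and 4.93 against 1.89, 3.29 and 6.29, a log2 fold change of 0.47, and Ercc1, the partner of another nuclease, was at 0.06. Of 13 BCL2 family genes 0 passed, with a median of -0.05. Bax, a pore-forming promoter of apoptosis that is also a p53 target, was at 264, 341 and 387 against 295, 320 and 384, with values on both sides of the vehicle range and a log2 fold change of -0.01 that became 0.01 with median-ratio scaling. Bak1, a protein of the same kind, was at 1.70, 0.274 and 0.241 against 0.473, 1.07 and 1.45.

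Cell cycle genes gave 1 member in each direction. Of 20 G1 cyclins, kinases and their inhibitors 1 was higher and 1 lower, against 0.321% and 2.84% of all genes, with a median of 0.0045. Cdkn2b, which encodes the CDK4 and CDK6 inhibitor p15 and lies on chromosome 4 from 89306289 to 89311032, was at 3.40, 2.87 and 4.21 in exposed embryos and at 1.09, 1.73 and 2.27 in vehicle. All exposed embryos lay above all vehicle embryos, with a log2 fold change of 0.84 (SE 0.26, adjusted p = 0.834 by limma), and it was 0.78 without D2996 and D3001. Ccnd2, a D-type cyclin, was at 8.65, 7.12 and 5.41 against 7.05, 10.2 and 22.9, a log2 fold change of -0.68 that was -0.28, not past the looser rule, without the pair. Cdk4 had a log2 fold change of -0.01, which became 0.01 with median-ratio scaling. The 20 proliferation genes gave 0 past the looser rule and a median of -0.03. Ccnb1, a mitotic cyclin, was at 785, 1295 and 1323 against 640, 1249 and 1426, with a log2 fold change of -0.01 that also became 0.01 with that scaling. Plk1, a mitotic kinase, was at 27.5, 22.6 and 84.1 against 35.1, 47.1 and 62.5, so that exposed embryos lay on both sides of vehicle.

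Wnt feedback had 13 tested genes, 0 past the looser rule and a median of -0.03, and 1, Sp5, was higher without the pair. Ctnnb1, which encodes beta-catenin, had a log2 fold change of 0.09, and Sp5, a direct Wnt target, was at 2.01, 2.46 and 2.41 against 0.455, 1.62 and 2.74. Frat2, an inhibitor of GSK3, was at 2.47, 3.28 and 4.21 against 2.96, 4.29 and 6.88. The Txnip and glucose sensing list had 11 tested genes, 0 past the looser rule and a median of -0.03. Txnip, a brake on glucose uptake, was at 21.5, 11.1 and 23.7 against 11.8, 18.1 and 25.9, with a log2 fold change of 0.00089. Gm15441 overlaps Txnip on the other strand, so reads from the stretch they share cannot be told apart in these libraries. Gm15441 was at 3.71, 2.05 and 4.57 against 2.72, 3.83 and 7.43. Arrdc4, an arrestin of the same family as Txnip, had a log2 fold change of 0.15. Nphs1, the nephrin gene, was at 16.7, 20.1 and 17.1 against 14.3, 16.7 and 25.2. Exposed embryos overlapped with vehicle in each of these genes.

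The large housekeeping lists had small log2 fold changes, mostly of 1 sign within a list. Of 77 genes for cytosolic ribosomal proteins 76 had a log2 fold change above 0, where 6622 of all 13083 genes had. In this list 0 passed the looser rule and the median was 0.13, which was 0.15 with median-ratio scaling and 0.10 without D2996 and D3001. Rpl30 was at 856, 804 and 589 in exposed embryos and at 586, 628 and 814 in vehicle. D1669 lay above the vehicle range, D3620 near its top and D4028 near its bottom. Of 82 tested respiratory chain genes 67 lay above 0, with 0 past the looser rule and a median of 0.17, which was 0.04 without the pair. Atp5g1, an ATP synthase subunit, was at 2727, 2890 and 1700 against 1335, 1970 and 2968, and Uqcrb, of complex III, had a log2 fold change of 0.23. The 19 glycolysis genes had 0 past the looser rule and a median of -0.20, which was -0.03 without the pair. Ldhb, a lactate dehydrogenase, and Aldoc, an aldolase, had log2 fold changes of 0.07 and -0.43.

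Immediate early and heat shock genes had 18 tested members, of which 16 lay below 0 and 0 passed the looser rule. Their median of -0.38 was -0.03 without D2996 and D3001, with 1 lower and 1 higher. Dnajb1, a cochaperone with the highest normalized count, was at 147, 151 and 228 in exposed embryos and at 132, 186 and 213 in vehicle. Hsph1, a chaperone of the Hsp110 family, was at 108, 76.8 and 81.0 against 57.0, 68.8 and 85.2, with D1669 above the vehicle range and a log2 fold change of 0.32. Among 8 tested chemokines and receptors 1 was higher and 0 lower, against 0.321% and 2.84% of all genes, with a median of -0.26. This was Ccl28, a mucosal chemokine, at 0.927, 0.958 and 1.08 against 0.118, 0.341 and 0.606. The values did not overlap, though they were near 1, and the log2 fold change was 0.85 (SE 0.38, adjusted p = 1 by limma). Ccl25, an attractant of T cell precursors, was at 37.5, 31.5 and 17.2 against 13.2, 24.1 and 37.2.

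The F2 embryos at the other doses share the same vehicle embryos, so their values are given only side by side. For Fgf9 the log2 fold change was -1.65 at 2 mg/kg-day, -1.44 at 0.2 mg/kg-day and 0.09 at 0.033 mg/kg-day. For Cdkn2b it was 0.84, 0.86 and 0.60. The median over the Sertoli markers was -0.99, -1.57 and 0.26, and over the macrophage markers -0.93, -1.08 and -1.07. Limma called 0 genes between 2 and 0.2 mg/kg-day, with 641 at an unadjusted p below 0.05, and 0 between 2 and 0.033 mg/kg-day, with 475. Both unadjusted counts were under a share of 0.05 of the genes tested. The edgeR tests of these differences also called 0. By the looser rule 350 genes (2.68%) were lower and 42 (0.321%) higher at 2 than at 0.033 mg/kg-day, a difference that takes in no vehicle embryo. The counts were 394 (3.02%) and 48 (0.368%) in the fit without D2996 and D3001. With 1 exposed embryo left out they were 499 and 91 without D1669, 248 and 64 without D3620, and 500 and 89 without D4028. Between 2 and 0.2 mg/kg-day 268 genes (2.05%) were lower and 207 (1.58%) higher, and 277 (2.12%) and 228 (1.75%) in the fit without D2996 and D3001. These counts moved more with the exposed embryos. They were 300 and 247 without D1669, 124 and 158 without D3620, and 799 and 414 without D4028.

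The XX embryos of F2 came from the same dams but have their own vehicle group. At 2 mg/kg-day the looser rule gave 277 lower (2.12%) and 83 higher genes (0.634%) in them. Of the 372 lower genes of XY embryos 12 (3.23%) were lower in XX embryos too, which is 4.33% of the XX list, and of the 42 higher genes 2 (4.76%) were higher, 2.41% of the XX list. Sertoli marker sums were between 21.7 and 36.9 in XX embryos, and the median log2 fold change over these markers was -0.05. The macrophage sum in XX embryos was lowest at 6.09, with a median of 15.1 and a highest value of 16.4, at 2 mg/kg-day and 18.7, 35.9 and 49.7 in vehicle. All exposed XX embryos lay under all vehicle XX embryos in this sum. The difference between the XY and XX responses was itself tested, and limma called 0 genes, with 328 at an unadjusted p below 0.05. EdgeR's tests of it also called 0, with 395 (likelihood ratio) and 340 (quasi-likelihood), each count under a share of 0.05 of the genes tested. For Fgf9 that difference was -2.07 (adjusted p = 1 by limma).

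The F1 embryos differ from those of F2 and F3 in dosing as well as in generation, since BaP was given until E11.5 for F1 and until E15.5 for F2 and F3, and these cannot be told apart here. In XY embryos of F1 the looser rule gave 144 lower (1.08%) and 88 higher genes (0.662%), and in those of F3 50 lower (0.376%) and 37 higher genes (0.278%). Of the 372 lower genes of F2, 368 were tested in both. In F1, 13 of them (3.53%) were lower, 9.03% of the F1 list, and in F3, 6 (1.63%), 12% of the F3 list. Of the higher genes 41 were tested, with 2 higher in F1 (4.88%, and 2.27% of the F1 list) and 1 in F3 (2.44%, and 2.70% of the F3 list). The median over the Sertoli markers was 0.02 in F1 and -0.10 in F3, and over the macrophage markers 0.02 and 0.11. Fgf9 had log2 fold changes of 0.34 in F1 and 0.02 in F3. Limma called 0 genes for the difference between the F2 and F1 responses and 0 for that between F2 and F3. At an unadjusted p below 0.05 by limma there were 195 and 80, each under a share of 0.05 of the genes tested. EdgeR's tests, which left out F3 embryos whose whole reads could not be recovered, called 0 in both as well.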

How the data were processed

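The deposited table holds signal values that the authors made from RNA-seq of sorted germ cells by trimming with Trim Galore, aligning to GRCm38 with STAR, counting with Rsubread and normalizing with edgeR's TMM method (versions not given in the sources used here). It lists 15423 genes in 53 XY and 48 XX embryos. All values of the 9 embryos compared were whole multiples of 1 read within 0.05, so reads were recovered, and limits from low reads cover counting error only. In R 4.3.3, limma 3.58.1 fitted log2(value + 0.5) with a trend in 8 sex-by-dose groups of 30 F2 embryos, for genes with a mean of at least 0.5, with Benjamini-Hochberg adjustment over all of them. Contrasts with F1 and F3 came from 1 fit of 24 groups. EdgeR 4.0.16 tested the recovered reads. The methods were tested on simulated data. Gene positions are from RefSeq for GRCm38. The 9 embryos were not copies of one another, since in 18 pairs within groups chi-square per degree of freedom was 8.51 or more.

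Named genes were those called, the 12 with the smallest p in each direction among non-overlapping genes differing at least 1.5-fold with a group mean of at least 5, each list's highest in normalized count, smallest in p and up to 4 past the looser rule, and 11 genes chosen by name. Cd1d1, Dock10 and Slc9a3r2 were added after their values were seen. The values of 1 gene named by these rules are not reported here. The comparison and its 12 marker lists and 24 gene lists were chosen with earlier results of these data known. Brothers and sisters share a dam within a dose. In 15 such pairs the correlation of their deviations over 2000 genes ranged from -0.291 to 0.456 (median 0.0778) and exceeded 0.1 in 7. Alternatives were other pseudocounts, filters, scaling, tests and groups in the fit, a block for the dam and leaving out each embryo. Promoter motifs are not reported because promoter sequences matched too few of the genes tested.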

Additional observations from a re-analysis of the deposited data

Results flagged for a closer look

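Single vehicle embryos lay far from the other 5 in 9 of 115 sets of values examined in the F2 XY vehicle group. Chance alone would do this in about 1 of 20 independent sets, but these sets share embryos and are not independent. Exposed embryos, only 3, were not examined in this way. Vehicle embryo D2991.3 had an erythroid marker sum of 1666 with Hba-a1 at 707 and Hbb-b1 at 125 normalized counts. Vehicle embryo D3001.1 was far above the others for Fbln2 (19.7), Sox9 (20.2), Gata4 (18.5) and Frat2 (6.88). Nphs1 was at 25.2 in vehicle embryo D3133.5, and vehicle embryo C4988.2 had 12211582 reads. Without D2991 the log2 fold change was -1.04 for Hba-a1 and -0.71 for Hbb-b1, without D3001 it was -1.23 for Fbln2, -0.94 for Sox9, -0.82 for Gata4 and -0.22 for Frat2, and without D3133 it was 0.14 for Nphs1. No such value was made for the erythroid sum or the reads.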

How the results depend on the processing

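The count of 0 called genes was the same in 18 of the 20 alternatives to the limma fit of F2 XY embryos. The exceptions were edgeR's likelihood ratio test with 3 and leaving out embryo D4028, so that leaving out single embryos gave 0 to 1. Without a filter on low values 1 gene was called between 2 and 0.2 mg/kg-day. The block for the dam (estimated correlation 0.0532) changed no call and gave 372 lower and 42 higher genes by the looser rule, 371 and 42 of them shared. Lower genes numbered 82 with a minimum mean of 5, where fewer genes were tested, 155 without D2996 and D3001 and 217 to 581 with 1 embryo left out. Higher genes numbered 17 with a pseudocount of 1, 71 without a filter, 5 with a minimum mean of 5, 64 by the likelihood ratio test, 22 in a fit of the 2 groups alone, 25 in a fit of the 4 XY groups, 182 without D2996 and D3001 and 26 to 179 with 1 embryo left out. Defined in all 34 vehicle embryos, XY-biased genes numbered 1049 and XX-biased genes 1083.

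Of 99 named genes tested, 25 changed the sign of their log2 fold change in at least 1 alternative, 67 of 1933 values in all, and the cause was not tested. Without D2996 and D3001, an alternative chosen after the data were seen, the log2 fold change was 0.015 for Acta2, -0.040 for Krt7, -0.036 for Eif2s3y, -0.018 for Dppa5a, -0.064 for Syce2, -0.062 for Fkbp6, -0.25 for Eed, -0.24 for Snrpn, -0.072 for Gpx1, -0.22 for Ercc1, -0.083 for Arrdc4, -0.025 for Ldhb, 0.059 for Stra8 and -0.015 for Nphs1. Bax was at 0.016 with either edgeR test and at 0.012 with median-ratio scaling. Cdk4 was at 0.0030 with either edgeR test and at 0.012 with that scaling, where Ccnb1 was at 0.012. Stra8 was at 0.016 with a pseudocount of 0.1. With single embryos left out the ranges were -0.047 to 0.44 for Pecam1, -1.36 to 0.088 for Cst9, -0.84 to 0.051 for Acta2, -0.13 to 0.17 for Lefty2, -0.014 to 0.20 for Fkbp6, -0.092 to 0.30 for Eed, -0.28 to 0.22 for Snrpn, -0.016 to 0.22 for Gpx1, -0.13 to 0.15 for Bax, -0.11 to 0.20 for Ercc1, -0.075 to 0.069 for Cdk4, -0.17 to 0.24 for Ccnb1, -0.92 to 0.017 for Plk1, -0.24 to 0.077 for Dnajb1, -0.30 to 0.033 for Ahr, -0.013 to 0.45 for Cyp1b1, -0.66 to 0.42 for Stra8, -0.20 to 0.33 for Txnip and -0.045 to 0.14 for Nphs1. Of the named genes past the looser rule, Pcolce, Tspan32, Eps8, Mro, Gata4, Krt18, Krt8, Dsp, Lgals7, Wnt6, Inhbb, Spry4, Dlk1, Igf2, Grb10, Ccnd2 and Slc9a3r2 did not pass it without D2996 and D3001. Fbln2, Mro, Gata4, Dsp, Lgals7, Wnt6, Cpa3, Klf4, Inhbb, Igf2, Grb10, Gstm2, Ccnd2 and Ccl28 did not without D4028. There the log2 fold change was still -1.94 for Cpa3 and 0.81 for Ccl28. 9030624G23Rik did not pass the rule without D1669. Conversely, Egfl7, Acta2, Syce2, Tdgf1, Nanos2, Plk1 and Plk2, not past the rule with all 9 embryos, passed it without D4028. Many of the genes named rest on a few reads per embryo, which limits the precision of their values.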
